A study of Homo sapiens with 42 samples.

Results

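Ribosome biogenesis and nucleolar genes make the machinery that transcribes, cuts, modifies and assembles ribosomal RNA. A fixed list of 39 of them was read from a table of 58850 genes, and all 39 were found and had enough counts to be tested in both cell lines. Messenger RNA was counted in 2 human acute myeloid leukaemia lines, OCI-AML3, labelled NPM1c+ (mutant nucleophosmin that sits in the cytoplasm), and NOMO1, described in the series as KMT2A-rearranged. Each line had 7 groups of 3 libraries, 42 libraries in all. The treated groups had 100 nM of the menin inhibitor VTP-50469 for 3 or 6 days, 100 nM of the MEK inhibitor selumetinib, or both drugs (the combination) with samples at day 3 and day 6, and the controls had DMSO, the solvent, at day 3 and day 6. The menin inhibitor's number is spelled VTP-50649 in a treatment label and VTP-50469 in the series description, whose form is used. The time of selumetinib alone is uncertain, because the treatment protocol gives 1 day while the titles of replicates 2 and 3 say day 3, and its duration in the combination is not labelled. The 3 libraries of a group are not labelled as separate cultures, so p-values measure only the spread between these libraries, which may be technical. Each line is a single cultured line, so what is shown holds for these lines.

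RNA polymerase I transcribes the ribosomal RNA genes in the nucleolus. The long precursor is then modified at sites chosen by small nucleolar RNAs packed with proteins (snoRNPs), folded and cut inside the small-subunit processome and the large-subunit assembly particles, and joined with ribosomal proteins. Genes for these factors are known to be expressed together with cell growth and are textbook targets of the transcription factor MYC. Menin tethers the KMT2A complex to chromatin. MEK is a kinase of the RAS pathway, just upstream of ERK. The 39 genes were sorted by role into 5 for RNA polymerase I and its cofactor, 7 for snoRNPs, 12 for the small subunit, 12 for the large subunit and 3 abundant nucleolar proteins.

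OCI-AML3 libraries held 15561210 to 24262957 counts and NOMO1 libraries 15264862 to 29168628, and the 39 genes together had 68822 to 183585 counts in an OCI-AML3 library and 33621 to 139476 in a NOMO1 library. Values below are CPM (counts scaled to a common library size, with TMM factors within each line), and log2 fold changes are given ± the standard error from edgeR's quasi-likelihood test, with 3 libraries per group and a call at an adjusted p under 0.05 over all genes. Bulk counts are shares of a library, so fewer cells of a kind and less RNA per cell cannot be told apart. Of 10 myeloid markers 10 exceeded 5 CPM in some NOMO1 group and 9 in some OCI-AML3 group (MPO stayed at or below 2.45 CPM there), and of 18 markers of other cell types 6 and 2 did. The NOMO1 DMSO day 3 group stood apart: mitochondrial transcripts took 17.8% ± 0.197 of its counts, against 3.17% ± 0.481 in NOMO1 DMSO day 6 (SD, n = 3 each). NOMO1 treatments were therefore set against DMSO day 6, and for the 39 genes results with DMSO day 3 are given beside them. In OCI-AML3, VTP-50469 day 3 replicate 2 and selumetinib replicate 1 lay off their partners. Within a line, comparisons share DMSO libraries and are not independent. Genes printed library by library were mostly picked for their change, so libraries that lie fully apart describe these genes and add no test.

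Some genes had few counts or share exon bases with neighbours. NOP2, which encodes an rRNA methyltransferase of the large subunit, had 0 to 43 counts in a library, and 54.4% of its exon bases are shared in GENCODE 29 with AC006064.6, a gene on the same strand whose own row was 0 in 42 of 42 libraries. PPAN, a large-subunit factor, shares 59.8% of its exon bases with other genes, 56.0% with the read-through gene PPAN-P2RY11, and had 11 to 422 counts in a library. Fold changes of these 2 genes rest on few reads, and NOP2 passed no test below. The libraries are unstranded, so reads of NHP2, HEATR1, TSR1 and NIP7 could not be told from those of opposite-strand neighbours that cover 27.4%, 23.2%, 20.7% and 20.2% of their exon bases. The neighbours RMND5B (of NHP2) and LGALS8 (of HEATR1) did not always move with them: in the NOMO1 combination at day 6 NHP2 and HEATR1 had log2 fold changes of -1.57 and -1.80, against -0.05 and 0.13 for these neighbours, which did not pass. In the OCI-AML3 combination at day 6 LGALS8 rose (0.85). Between the NOMO1 DMSO days, at day 6 over day 3, LGALS8 and HEATR1 both rose (0.46 and 1.49). The neighbours of TSR1 and NIP7 were not read. NPM1 has processed pseudogenes, and how the authors' counting treated reads that match several places is not given in the sources used here. A gene count also does not separate mutant from normal NPM1 messages in OCI-AML3.

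The promoters of these genes were searched for CACGTG, the core E-box that MYC with its partner MAX is known to bind. The letters read the same on both strands, so 1 search covers both. No other motif was searched, so a match is not shown to be particular to MYC. Of 39 genes 32 had an entry in RefSeq's table for GRCh38.p14, which holds 250 bases before and 50 after each start; BOP1, NOLC1, NOP58, POLR1E, RRP12, RRS1 and TCOF1 had none. The motif stood in 14 of the 39 windows listed for them, or 35.9%, against 7.26% of all 35116 windows and 8.34% of the 22198 of protein-coding genes. The 14 genes were BYSL, DDX21, FBL, GAR1, GNL3, IMP4, MRTO4, NAT10, NOP14, NOP2, PES1, RRP9, UTP20 and WDR43. Shown are 30 bases around the motif, in capitals, for 7 genes that return below, each read 5′ to 3′ on its own strand from RefSeq.
MRTO4 (chr1:19251807-19251836, plus strand): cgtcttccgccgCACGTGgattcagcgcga
GNL3 (chr3:52686026-52686055, plus strand): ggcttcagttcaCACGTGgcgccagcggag
RRP9 (chr3:51941892-51941921, minus strand): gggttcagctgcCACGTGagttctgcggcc
PES1 (chr22:30591880-30591909, minus strand): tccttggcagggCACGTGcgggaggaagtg
NAT10 (chr11:34105602-34105631, plus strand): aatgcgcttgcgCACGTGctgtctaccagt
UTP20 (chr12:101280083-101280112, plus strand): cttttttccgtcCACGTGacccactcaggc
FBL (chr19:39846356-39846385, minus strand): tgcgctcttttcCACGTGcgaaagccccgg
In RRP9, UTP20 and NAT10 the motif began 5, 10 and 15 bases before the listed start, and in FBL, GNL3, PES1 and MRTO4 from 7 to 15 bases after it.

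DDX21, an RNA helicase of the nucleolus that is known to bind RNA polymerase I transcripts and snoRNAs, had the motif 31 bases before 1 of its 2 listed starts, and its 250 upstream bases are printed as an example of a whole upstream window.
DDX21 (chr10:68956397-68956646, plus strand): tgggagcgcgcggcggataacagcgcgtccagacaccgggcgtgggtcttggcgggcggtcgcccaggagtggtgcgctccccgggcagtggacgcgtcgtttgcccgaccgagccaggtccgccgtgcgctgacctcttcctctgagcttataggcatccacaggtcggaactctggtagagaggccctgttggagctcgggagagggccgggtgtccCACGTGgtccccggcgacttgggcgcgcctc
A match describes these letters only and shows no binding. Fold changes with and without the motif were set side by side with no test. In the OCI-AML3 combination at day 3 the median log2 fold change was -1.26 over the 14 genes with it and -1.20 over the 18 without, and in the NOMO1 combination at day 6 it was -2.12 and -1.84, with ranges from -3.27 to -0.89 and from -3.39 to -0.95. The medians were -0.94 and -0.90 in the OCI-AML3 combination at day 6, and -1.19 and -0.92 in the NOMO1 combination at day 3. With VTP-50469 at day 6 they were -0.26 and -0.25 in OCI-AML3, and -0.86 and -0.89 in NOMO1. With selumetinib they were -0.451 and -0.442 in OCI-AML3, and -0.506 and -0.49 in NOMO1.

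The lines differed in these genes before treatment. Set against OCI-AML3 DMSO day 6, NOMO1 DMSO day 6 had 32 of the 39 genes lower and 3 higher, with a median log2 difference of -0.83, while 28.6% of all genes tested were called lower and 32.7% higher (edgeR, both lines in 1 fit). On a scale of CPM per kilobase of exon, NPM1 (histone and ribosome chaperone) was highest in both lines, at 352 ± 29.3 in NOMO1 and 490.2 ± 12.5 in OCI-AML3 DMSO day 6 (SD, n = 3 each), followed by nucleolin, NCL, at 138 ± 2.61 and 198 ± 4.95. The next in NOMO1 were FBL, the methyltransferase of box C/D snoRNPs, at 98.2 ± 2.05, DDX21 at 54.8 ± 1.69, and NHP2 and NOLC1 at 49.8 ± 1.07 and 49.6 ± 2.95, which did not differ beyond their spread. In OCI-AML3 the next were DDX21 at 101 ± 4.34, then BOP1, NOLC1 and FBL at 80.7 ± 5.46, 78.5 ± 2.10 and 75.2 ± 3.48, which lay within each other's spread. Apart from NOP2, the small-subunit scaffold UTP20 was lowest per kilobase in both, at 1.54 ± 0.172 in NOMO1 and 4.23 ± 0.245 in OCI-AML3.

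The largest line differences were those of HEATR1, a small-subunit factor also needed for RNA polymerase I transcription (-1.63 ± 0.09, adjusted p = 1.46e-19), BOP1, a member of the PeBoW complex of large-subunit processing (-1.46 ± 0.10, adjusted p = 1.5e-17), and UTP20 (-1.46 ± 0.16, adjusted p = 4.67e-11), which POLR1E equalled (-1.46 ± 0.10, adjusted p = 3.07e-16). FBL (0.39 ± 0.07, adjusted p = 4.26e-06), NHP2 (0.47 ± 0.11, adjusted p = 0.000246) and NOC2L (0.57 ± 0.08, adjusted p = 4.07e-08) were higher in NOMO1. Scaled by library totals, which moved the median of all genes by -0.25 in this comparison, 34 genes were lower and 1 higher, and FBL and NHP2 lost their calls. With DMSO day 3 as the control in both lines, 27 were lower and 3 higher, HEATR1 and UTP20 moved to -3.19 and -3.15, and NHP2 turned to -0.19.

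Summed over the 39 genes, their share of all counts was lower in each drug group than in DMSO of the same line, with NOMO1 read against DMSO day 6. In OCI-AML3 it was 0.802% ± 0.0731 with VTP-50469 at day 3, 0.684% ± 0.0627 with selumetinib and 0.428% ± 0.0187 in the combination at day 3, against 0.897% ± 0.012 in DMSO day 3 (SD, n = 3 each). At day 6 it was 0.684% ± 0.012 under VTP-50469 and 0.44% ± 0.0178 under both drugs, against 0.892% ± 0.0181 in DMSO. In NOMO1 it was 0.446% ± 0.0202 with VTP-50469 at day 3, 0.357% ± 0.0228 with selumetinib, 0.269% ± 0.00252 in the combination at day 3, 0.254% ± 0.00238 after 6 days of VTP-50469 and 0.162% ± 0.00248 in the day 6 combination, against 0.48% ± 0.0122 in DMSO day 6. The NOMO1 DMSO day 3 group had 0.379% ± 0.00813, below VTP-50469 day 3. NPM1 and NCL made up 39.1% to 57.3% of these counts, the most in the NOMO1 combination at day 6. Mitochondrial transcripts, which enter the total, took 12.3% ± 2.27 of counts in the OCI-AML3 combination at day 6, against 3.24% ± 0.665 in DMSO day 6, and they took 6.16% ± 0.168 in the combination at day 3, against 2.53% ± 0.128 in DMSO day 3. The combination at day 6 also had fewer genes detected, 16742 to 17437 in a library, against 20207 to 20482 in DMSO day 6. With mitochondrial genes removed from the fit, 38 of the 39 genes were lower and 0 higher in the OCI-AML3 combination at day 3 (median -1.285). The same counts held at day 6 (median -0.967). Over all genes 4209 were lower and 3650 higher at day 3, and 4360 and 3751 at day 6. Any other part of the mitochondrial share, and that of the genes detected, was not tested.

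**Figure D1:**
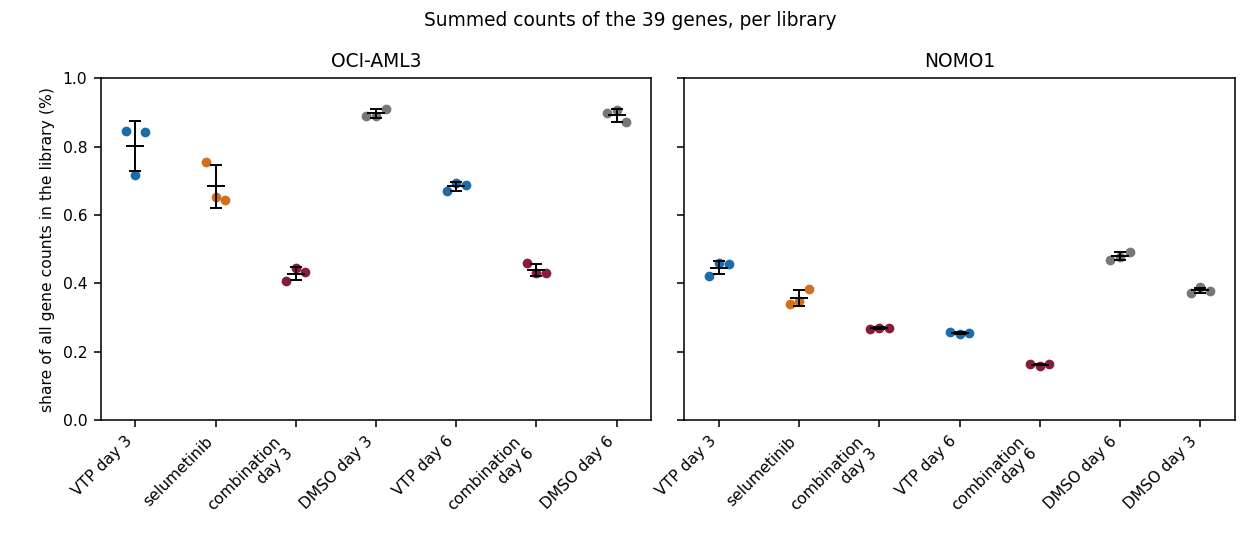
Summed counts of the 39 genes as a percentage of all gene counts (y axis, from 0) in each library, by group (x axis), OCI-AML3 on the left and NOMO1 on the right; points are libraries, bars the mean and SD of 3. Both combination groups of OCI-AML3 lie at 0.408% to 0.461%, below its other groups. In NOMO1 the combination at day 6 is lowest, at 0.159% to 0.164%, and the combination at day 3, at 0.266% to 0.271%, lies just above VTP-50469 at day 6.

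VTP-50469 in OCI-AML3 tests how blocking menin changes these genes in an NPM1-mutant line. At day 6, 23 of 39 genes fell and 1 rose, with a median log2 fold change of -0.28; 16.0% of all genes tested were called lower and 18.8% higher. The falls covered 2 of 5 RNA polymerase I genes, 4 of 7 snoRNP genes, 9 of 12 small-subunit genes, 5 of 12 large-subunit genes and 3 of 3 nucleolar genes. POLR1E, a subunit particular to RNA polymerase I, lay at 48.7, 47.7 and 47.5 CPM with VTP-50469, against 78.4, 81.5 and 80.2 in DMSO (-0.74 ± 0.10, adjusted p = 1.31e-06). POLR1B, its second largest subunit, lay at 64.8, 74.2 and 64.3 CPM, against 109, 111 and 105 in DMSO (-0.68 ± 0.08, adjusted p = 1.42e-07). In both the treated and DMSO libraries were fully apart. POLR1A, the largest subunit, POLR1C, which is shared with RNA polymerase III, and treacle, TCOF1, did not pass (-0.13, -0.19 and -0.22).

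Of the snoRNP genes, NOP58, a core box C/D protein, had 123, 122 and 124 CPM with VTP-50469 at day 6, against 176, 174 and 167 in DMSO (-0.49 ± 0.10, adjusted p = 0.000286), and its partner NOP56 and the pseudouridine synthase DKC1 also fell (-0.39 and -0.47). NHP2, a box H/ACA protein, went the other way, at 73.1, 77.7 and 77.1 CPM with VTP-50469, against 56.7, 64.0 and 66.4 in DMSO (0.28 ± 0.10, adjusted p = 0.032). The NHP2 groups did not overlap, but the call was lost without DMSO replicate 1 or 2 (0.21 and 0.30) or VTP-50469 replicate 2 or 3 (0.26 and 0.27), with DESeq2 (adjusted p = 0.0515) and with no filter on low counts (adjusted p = 0.0738). In the small subunit, RRP12, known from yeast for pre-ribosome export, lay at 77.6, 88 and 81.9 CPM, against 138, 144 and 138 in DMSO (-0.76 ± 0.09, adjusted p = 1.78e-07), and HEATR1 at 121, 127 and 126, against 206, 219.6 and 204 (-0.75 ± 0.09, adjusted p = 1.25e-07). The U3 snoRNP proteins RRP9 and IMP4 and the 40S maturation factor BYSL did not pass (-0.34, -0.12 and -0.14).

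The large-subunit genes split in OCI-AML3 at day 6 of VTP-50469. WDR12, a PeBoW member, had the largest fall of the 39, at 67.1, 73.5 and 72.8 CPM, against 133, 143 and 128 in DMSO (-0.92 ± 0.11, adjusted p = 5.98e-08). Its partners BOP1 (-0.47) and PES1 (-0.24) fell less on the log2 scale, and a difference between these genes was not tested. NOP16, the ITS2 nuclease LAS1L, NIP7, MRTO4, known from yeast as a stand-in for stalk protein P0 on the nascent subunit, and NOC2L did not pass (-0.07, 0.02, -0.03, -0.20 and 0.16). All 3 abundant nucleolar genes fell. NPM1 lay at 1329, 1403 and 1330.4 CPM, against 2159, 2204 and 2108 in DMSO (-0.67 ± 0.09, adjusted p = 1.12e-06), DDX21 at 349.8, 366 and 349, against 591, 602 and 556 (-0.72 ± 0.09, adjusted p = 5.6e-07), and NCL changed by -0.19. NPM1 and DDX21 were lower in every treated library than in any DMSO library.

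At day 3 of VTP-50469 in OCI-AML3 only 5 of the 39 genes passed, all lower (RRP12, HEATR1, NAT10, NPM1 and DDX21), with a median of -0.20, while 4.42% of all genes tested were called lower and 6.49% higher. RRP12 was at 101, 84.6 and 110.0 CPM, against 152.6, 153.1 and 142 in DMSO (-0.60 ± 0.09, adjusted p = 4.02e-05), HEATR1 at 175, 146 and 178, against 211, 218 and 225 (-0.39 ± 0.09, adjusted p = 0.00347), and DDX21 at 514, 418 and 503, against 571, 579 and 617 (-0.30 ± 0.09, adjusted p = 0.0337). Replicate 2 of VTP-50469 was the lowest of its group in each of these. Without it 2 genes passed and DDX21 lost its call (-0.21, adjusted p = 0.252). Without DMSO replicate 1, 2 or 3 the count was 2, 2 and 3, and DDX21 lost its call each time.

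Selumetinib alone tests the effect of MEK inhibition. In OCI-AML3 35 of 39 genes fell and 0 rose against DMSO day 3, with a median of -0.48, and 15.6% of all genes tested were called lower and 11.7% higher. The falls covered 4 of 5 RNA polymerase I genes, 7 of 7 snoRNP genes, 12 of 12 small-subunit genes, 10 of 12 large-subunit genes and 2 of 3 nucleolar genes. TCOF1, the scaffold that brings RNA polymerase I factors together, lay at 135, 98 and 101 CPM with selumetinib, against 183, 183 and 176 in DMSO (-0.70 ± 0.10, adjusted p = 1.54e-06). POLR1B did not pass, at 107, 97 and 99.1 CPM, against 110.3, 111 and 115 (-0.15 ± 0.08, adjusted p = 0.203). DKC1 lay at 180.2, 151 and 149 CPM, against 251, 249 and 246 (-0.63 ± 0.11, adjusted p = 8.13e-05), the largest fall on the log2 scale among the snoRNP genes. NHP2, which was higher with VTP-50469 at day 6, was lower here (-0.31 ± 0.10, adjusted p = 0.0261).

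In the small subunit RRP12 had 96.2, 78.9 and 68.9 CPM with selumetinib in OCI-AML3, against 152.6, 153.1 and 142 in DMSO (-0.88 ± 0.09, adjusted p = 2.85e-08), and RRP9, a U3 snoRNP protein, 41.1, 34.1 and 32.4, against 65.3, 73.5 and 56.5 (-0.86 ± 0.13, adjusted p = 1.27e-05). In the large subunit BOP1 had 245, 192 and 205 CPM, against 378, 375 and 333 (-0.76 ± 0.10, adjusted p = 1.14e-06). DDX21 had 367, 303 and 291 CPM, against 571, 579 and 617 (-0.88 ± 0.09, adjusted p = 3.49e-08). Selumetinib replicate 1, the only one of the 3 titled day 1, was the highest of its group in these 4 genes, still below each DMSO library. Without it 34 of 39 genes passed, the most when any 1 library was left out. Without replicate 2 the count was 27, the fewest. NPM1 had 1919.7, 1825 and 1814 CPM, against 2114, 2059.7 and 2219, groups that did not overlap, and did not pass (-0.20 ± 0.09, adjusted p = 0.108), though it did in a fit of only these groups (adjusted p = 0.00717) and with no filter on low counts (adjusted p = 0.0212).

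With both drugs the falls in OCI-AML3 were larger. At day 3, 38 of 39 genes fell and 0 rose, with a median of -1.29, and at day 6 38 fell and 0 rose, with a median of -0.96. Over all genes, 25.8% were lower and 22.3% higher at day 3, and 26.5% and 23.1% at day 6. NOP2 was the exception at both times. At day 3 the largest falls were those of RRP12, at 37.5, 36.7 and 35.9 CPM, against 152.6, 153.1 and 142 in DMSO (-2.02 ± 0.10, adjusted p = 8.39e-16), BOP1, at 78.6, 94.2 and 114, against 378, 375 and 333 (-1.92 ± 0.10, adjusted p = 2.21e-14), and DDX21, at 146, 198 and 158, against 571, 579 and 617 (-1.82 ± 0.10, adjusted p = 8.93e-15). For each of them every combination library was below every DMSO library.

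At day 6 of the combination in OCI-AML3, TCOF1 lay at 84.5, 69.6 and 83.4 CPM, against 189, 197 and 192 in DMSO (-1.28 ± 0.10, adjusted p = 6.44e-12), and POLR1B at 60.5, 58.2 and 70.2, against 109, 111 and 105 (-0.78 ± 0.08, adjusted p = 4.65e-09). NOLC1, a chaperone of snoRNPs, lay at 165, 168 and 143 CPM, against 354, 368 and 353 (-1.18 ± 0.09, adjusted p = 6.52e-12). RRP12 lay at 52.0, 48.9 and 51.6, against 138, 144 and 138 (-1.46 ± 0.10, adjusted p = 3.99e-13), and WDR12 at 43.7, 47.4 and 45.6, against 133, 143 and 128 (-1.56 ± 0.11, adjusted p = 1.53e-12). DDX21 lay at 231, 210.2 and 213, against 591, 602 and 556 (-1.42 ± 0.10, adjusted p = 9.49e-13), and NPM1 at 1059.7, 1165 and 1005, against 2159, 2204 and 2108 (-1.002 ± 0.09, adjusted p = 4.24e-10). In all 7 genes, picked for their falls apart from NPM1 and POLR1B, every combination library was below every DMSO library. The smallest falls that passed were those of POLR1C (-0.40), NIP7 (-0.49) and RRS1, a 5S particle factor (-0.52).

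Adding selumetinib to VTP-50469 in OCI-AML3 was tested directly. At day 3 38 of 39 genes were lower in the combination than with VTP-50469 alone and 0 higher, with a median of -1.07 (24.0% of all genes tested were called lower and 18.2% higher), led by BOP1 (-1.63 ± 0.10, adjusted p = 6.65e-13), DDX21 (-1.52 ± 0.10, adjusted p = 3.92e-13) and NOLC1 (-1.47 ± 0.09, adjusted p = 1.38e-13). At day 6 35 were lower and 0 higher, with a median of -0.64 (24.6% of all genes tested were called lower and 16.7% higher), led by PPAN (-1.14 ± 0.31, adjusted p = 0.00606), LAS1L (-1.06 ± 0.10, adjusted p = 1.87e-09) and TCOF1 (-1.06 ± 0.10, adjusted p = 5.98e-10). PPAN moved to -0.71 without combination replicate 2, whose 2.06 CPM lay below the 8.18 and 9.42 of its partners. POLR1B, POLR1C, RRS1 and NOP2 did not pass at day 6. POLR1B stood at 60.5, 58.2 and 70.2 CPM in the combination, against 64.8, 74.2 and 64.3 with VTP-50469, and the groups overlapped.

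The interaction asks if the combination at day 3 departs from the sum of the 2 single-drug log2 fold changes. In OCI-AML3 31 of 39 genes were lower than that sum and 0 higher (6.27% of all genes tested were called lower and 2.67% higher). The median of the sums was -0.66, against a median of -1.29 for the combination. All 39 genes, NOP2 with its few counts among them, lay below their own sum. The share of all genes below theirs was not counted. The median departure was -0.585 over the 39 genes and -0.046 over all genes tested. The largest departures were those of NOLC1 (-0.87 ± 0.13, adjusted p = 2.74e-05), BOP1 (-0.87 ± 0.14, adjusted p = 0.000148) and POLR1A (-0.80 ± 0.11, adjusted p = 2.33e-05). POLR1A lay at 64.3, 65.4 and 68.5 CPM in the combination, 139, 138 and 150.0 with VTP-50469 and 149.9, 126 and 119 with selumetinib, against 160.2, 167 and 159.6 in DMSO, so each single-drug library lay above the combination's. FBL, GAR1, RRP9, HEATR1, NOP2, RRS1, PPAN and NPM1 did not pass. Because the time of selumetinib differs between labels, the sum may join different times.

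**Figure D2:**
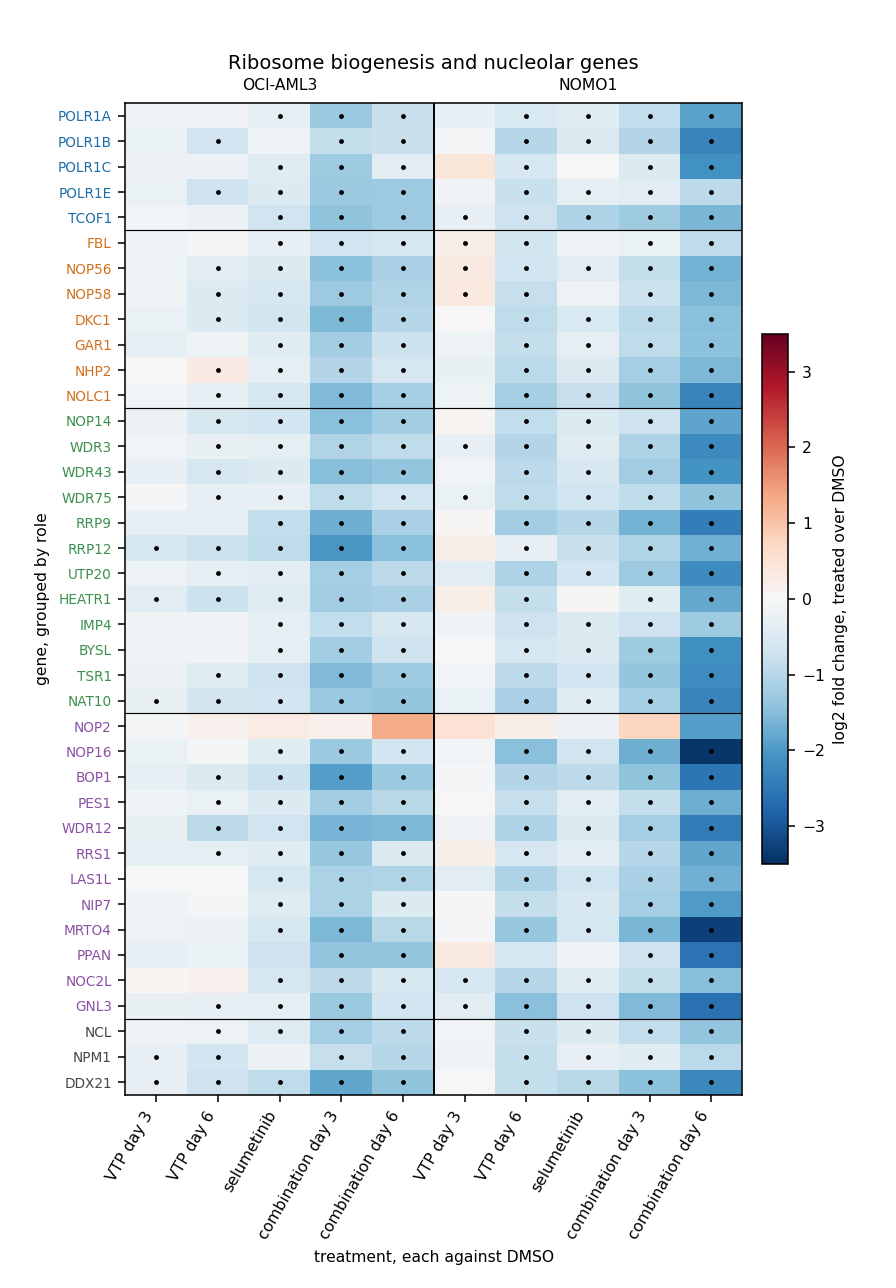
Log2 fold change of each of the 39 genes (rows, grouped by role and separated by lines) in each treatment against DMSO (columns), OCI-AML3 on the left and NOMO1 (against DMSO day 6) on the right; blue is lower and red higher than DMSO, and a dot marks an edgeR adjusted p under 0.05. Both combination columns of each line are blue in 38 called rows, and the darkest cells are NOP16 (-3.39) and MRTO4 (-3.27) in the NOMO1 combination at day 6.

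In NOMO1, VTP-50469 tests menin inhibition in the KMT2A-rearranged line. At day 6 37 of 39 genes fell and 0 rose, with a median of -0.84, and 25.1% of all genes tested were called lower and 23.7% higher. NOP2 and PPAN did not pass. POLR1B lay at 26.3, 25.9 and 29.4 CPM, against 52.0, 56.5 and 54.2 in DMSO (-0.997 ± 0.09, adjusted p = 3.2e-10), and NOLC1 at 77.8, 75.1 and 77.9, against 169, 166 and 186 (-1.17 ± 0.09, adjusted p = 1.08e-11). RRP9 lay at 9.85, 8.45 and 8.59 CPM, against 19.8, 19.4 and 23.8 (-1.23 ± 0.15, adjusted p = 7.95e-08). All 3 had treated libraries below each DMSO library.

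The 3 genes of largest fall in NOMO1 at day 6 of VTP-50469 were large-subunit genes, a role in which 10 of 12 fell. NOP16 lay at 7.02, 7.07 and 6.64 CPM, against 20.9, 17.0 and 19.4 in DMSO (-1.46 ± 0.16, adjusted p = 2.07e-08), nucleostemin, GNL3, a nucleolar GTPase of proliferating cells, at 39.8, 35.7 and 41.9, against 98.8, 110.4 and 113 (-1.46 ± 0.10, adjusted p = 9.81e-13), and MRTO4 at 17.8, 16.1 and 19.1, against 42.3, 45.1 and 46.5 (-1.34 ± 0.13, adjusted p = 1.3e-09). NPM1 lay at 661, 688 and 642 CPM, against 1112, 1294 and 1156 (-0.84 ± 0.07, adjusted p = 5.41e-11). RRP12, which had one of the largest falls in OCI-AML3, had the smallest called fall here, at 49.0, 46.7 and 45.5 CPM, against 53.2, 58.8 and 60.1 (-0.29 ± 0.10, adjusted p = 0.0173). With DMSO day 3 as the control 31 genes fell and 3 rose, while of the 16569 genes tested 4931 were lower and 5536 higher. NOP16 and MRTO4 moved to -2.30 and -2.58, and POLR1B and NOLC1 to -0.61 and -0.55. DDX21, at 142, 133 and 135 CPM with VTP-50469, lay below the 235, 247 and 246 of DMSO day 6. It lay above the 85.5, 90.8 and 86.5 of DMSO day 3. HEATR1, at 28.0, 28.7 and 30.6, lay below the 51.8, 50.9 and 53.5 of DMSO day 6 and above the 17.8, 17.4 and 20.2 of DMSO day 3. UTP20 also lay between the DMSO groups.

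At day 3 of VTP-50469 in NOMO1 5 genes were lower and 3 higher than in DMSO day 6, with a median of -0.08, while 14.4% of all genes tested were called lower and 12.7% higher, so the members' 5 and 3 of 39 lay no higher than the background. NOC2L lay at 90.1, 113 and 110.5 CPM, against 159, 149 and 160.3 in DMSO (-0.58 ± 0.09, adjusted p = 8.77e-06), and GNL3 at 70.8, 89.6 and 83.8, against 98.8, 110.4 and 113 (-0.40 ± 0.09, adjusted p = 0.00172). The other genes called lower were TCOF1, WDR3 and WDR75. The box C/D proteins NOP58, at 89.3, 84.4 and 102 CPM, against 66.6, 77.2 and 73.0 (0.34 ± 0.09, adjusted p = 0.00354), NOP56 (0.30 ± 0.09, adjusted p = 0.0103) and FBL (0.21 ± 0.07, adjusted p = 0.0298) were called higher.

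These day 3 calls in NOMO1 depended on single libraries. Replicate 1 of VTP-50469 had the lowest summed share of its group, and without it 4 genes were lower and 4 higher. NOP58 and NOP56 lost their calls without VTP-50469 replicate 3, NOP56 also without DMSO day 6 replicate 1 or 2, and FBL without any one library but VTP-50469 replicate 2. FBL also lost its call with no filter (adjusted p = 0.0754), and FBL and NOP56 in a fit of only the groups compared (adjusted p = 0.0944 and 0.056). The count of genes called lower was 3 without DMSO day 6 replicate 3 and 10 without VTP-50469 replicate 2, and the count called higher was 1 without DMSO day 6 replicate 1 or 2 and 0 without VTP-50469 replicate 3. Against DMSO day 3, 11 genes were lower and 13 higher, while of the 16569 genes tested 3756 were lower and 4925 higher. FBL and NOP56 turned to -0.35 and -0.01, NOP58 moved to 0.58 and NOC2L to -0.32.

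Selumetinib in NOMO1 lowered 33 of 39 genes and raised 0, with a median of -0.51, and 19.0% of all genes tested were called lower and 13.1% higher. The falls covered 4 of 5 RNA polymerase I genes, 5 of 7 snoRNP genes, 11 of 12 small-subunit genes, 10 of 12 large-subunit genes and 3 of 3 nucleolar genes. TCOF1 lay at 43.5, 50 and 52.0 CPM, against 103, 97.3 and 108 in DMSO (-1.09 ± 0.08, adjusted p = 1.1e-10), NOLC1 at 93.9, 95.2 and 109, against 169, 166 and 186 (-0.81 ± 0.09, adjusted p = 5.19e-08), and POLR1B at 38.2, 35.7 and 40.6, against 52.0, 56.5 and 54.2 (-0.51 ± 0.09, adjusted p = 5.28e-05). The treated libraries of these 3 genes were all below DMSO. RRP9 lay at 10.4, 9.22 and 11.8 CPM, against 19.8, 19.4 and 23.8 (-0.999 ± 0.15, adjusted p = 7.01e-06), BOP1 at 42.9, 51.1 and 59.5, against 92.3, 91.9 and 104 (-0.91 ± 0.09, adjusted p = 1.43e-08), and DDX21 at 114, 120.2 and 139, against 235, 247 and 246 (-0.96 ± 0.08, adjusted p = 2.56e-10). NPM1, at 919, 938 and 1051 CPM, against 1112, 1294 and 1156, fell by less (-0.29 ± 0.07, adjusted p = 0.00123), and POLR1C, FBL, NOP58, HEATR1, NOP2 and PPAN did not pass.

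Values for selumetinib in NOMO1 depended on the control. Against DMSO day 3, 22 genes were lower and 6 higher, while of the 16569 genes tested 4170 were lower and 4792 higher. TCOF1 moved to -0.64 and NPM1 to -0.60, NOLC1 (-0.18, adjusted p = 0.0872) and POLR1B (-0.12, adjusted p = 0.264) lost their calls, and DDX21 turned to 0.51. DDX21 was at 85.5, 90.8 and 86.5 CPM in DMSO day 3, below the selumetinib libraries, and at 235, 247 and 246 in DMSO day 6, above them. Neither DMSO group is labelled as 1 day.

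The combination gave the largest falls in NOMO1. At day 3 38 of 39 genes fell and 0 rose, with a median of -1.03 (24.4% of all genes tested were called lower and 20.9% higher), led by NOP16, at 6.21, 5.39 and 6.06 CPM, against 20.9, 17.0 and 19.4 in DMSO (-1.70 ± 0.17, adjusted p = 2.69e-09), RRP9, at 5.60, 6.72 and 7.55, against 19.8, 19.4 and 23.8 (-1.66 ± 0.15, adjusted p = 7.54e-10), and MRTO4, at 12.8, 16.1 and 15.2, against 42.3, 45.1 and 46.5 (-1.599 ± 0.13, adjusted p = 8.68e-11; -2.84 against DMSO day 3). At day 6 38 fell and 0 rose, with a median of -1.88 (28.1% of all genes tested were called lower and 27.2% higher). Against DMSO day 3, 34 genes were lower and 1 higher at day 3 of the combination, with a median of -0.78, and 38 were lower and 0 higher at day 6, with a median of -1.68. Of the 16569 genes tested 4562 were lower and 5159 higher at day 3, and 5364 and 5596 at day 6. HEATR1, at 38.4, 37.2 and 40.7 CPM at day 3 of the combination, lay below the 51.8, 50.9 and 53.5 of DMSO day 6 and above the 17.8, 17.4 and 20.2 of DMSO day 3. DDX21, at 84.0, 90.3 and 93.4, overlapped the 85.5, 90.8 and 86.5 of DMSO day 3, as UTP20 did.

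By role, the NOMO1 combination at day 6 had POLR1B at 12.1, 10.4 and 10.4 CPM, against 52.0, 56.5 and 54.2 in DMSO (-2.31 ± 0.09, adjusted p = 2.89e-17), and NOLC1 at 35.4, 32.1 and 37.4, against 169, 166 and 186 (-2.31 ± 0.09, adjusted p = 1.22e-17). RRP9 was at 4.31, 3.15 and 4.25 CPM, against 19.8, 19.4 and 23.8 (-2.43 ± 0.16, adjusted p = 4.39e-13). NOP16, known from yeast as a part of early large-subunit particles, was at 1.6, 1.64 and 2.25, against 20.9, 17.0 and 19.4 (-3.39 ± 0.19, adjusted p = 1.84e-14). In all 4 genes every combination library was below every VTP-50469 and every DMSO library. MRTO4 was at 4.6, 3.64 and 5.70 CPM, against 42.3, 45.1 and 46.5 (-3.27 ± 0.15, adjusted p = 1.92e-16), and GNL3 at 17.5, 19.8 and 15, against 98.8, 110.4 and 113 (-2.62 ± 0.10, adjusted p = 8.47e-18). DDX21 was at 49.7, 53.8 and 50, against 235, 247 and 246 (-2.25 ± 0.08, adjusted p = 1.99e-18; -0.78 against DMSO day 3). The smallest called falls were those of FBL (-0.88), POLR1E (-0.92) and NPM1, which lay at 644, 612 and 593 CPM, against 1112, 1294 and 1156 (-0.95 ± 0.07, adjusted p = 2.24e-12).

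**Figure D3:**
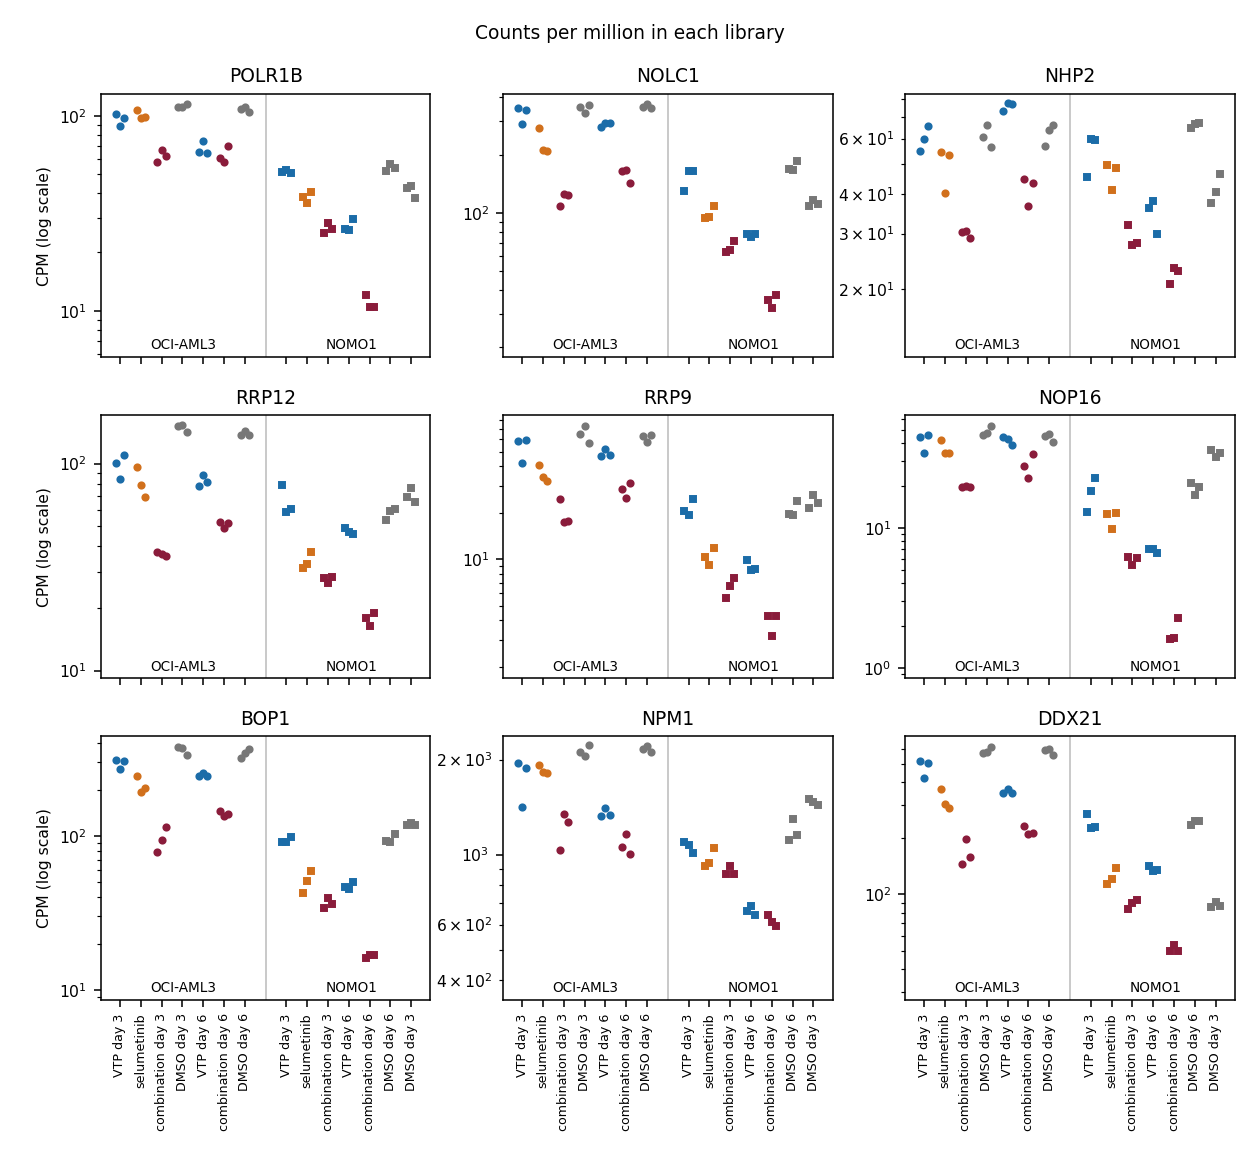
CPM (y axis, log scale) in each library for 9 of the genes, by group (x axis, labelled under the bottom row), OCI-AML3 as circles left of the grey line and NOMO1 as squares right of it; blue is VTP-50469, orange selumetinib, dark red the combination and grey DMSO. The NOMO1 combination at day 6 is the lowest NOMO1 group for 8 of the 9 genes without overlap, and for NPM1 its 593 to 644 CPM overlap the 642 to 688 of VTP-50469 at day 6.

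Adding selumetinib to VTP-50469 in NOMO1 lowered 38 of 39 genes at day 3 and raised 0 (median -0.94; 19.2% of all genes tested were called lower and 15.9% higher). The largest of these were RRP9 (-1.70 ± 0.15, adjusted p = 1.66e-09), NOP16 (-1.61 ± 0.17, adjusted p = 1.89e-08) and MRTO4 (-1.54 ± 0.13, adjusted p = 5.75e-10). At day 6 36 were lower and 0 higher (median -1.16; 15.2% of all genes tested were called lower and 12.4% higher), led by PPAN (-2.01 ± 0.32, adjusted p = 2.57e-05), MRTO4 (-1.93 ± 0.15, adjusted p = 1.42e-10) and NOP16 (-1.93 ± 0.20, adjusted p = 2.35e-08). NPM1 (-0.11 ± 0.07, adjusted p = 0.259), POLR1E (-0.15 ± 0.11, adjusted p = 0.378) and NOP2 did not pass. NPM1 lay at 644, 612 and 593 CPM in the combination, against 661, 688 and 642 with VTP-50469, and these groups overlapped, unlike those of DDX21, at 49.7, 53.8 and 50, against 142, 133 and 135. These comparisons use no DMSO group.

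The interaction at day 3 was called lower for 22 of 39 genes in NOMO1 and higher for 0 (5.96% of all genes tested were called lower and 7.91% higher). The median sum of the single effects was -0.60, against -1.03 for the combination, and 33 of 39 genes lay below their own sum. The share of all genes below theirs was not counted. The median departure was -0.449 over the 39 genes and -0.015 over all genes tested. MRTO4 (-0.93 ± 0.18, adjusted p = 0.000733), NOP58 (-0.92 ± 0.12, adjusted p = 1.37e-05) and NOP16 (-0.91 ± 0.23, adjusted p = 0.00745) departed most. The count was 11 without selumetinib replicate 3, 13 without DMSO day 6 replicate 1 and 14 without combination replicate 1. With DMSO day 3 as the control 22 genes were lower and 2 higher, while of the 16569 genes tested 3595 were lower and 2541 higher. MRTO4 turned to 0.31 (adjusted p = 0.181) and NOP16 lost its call (-0.07, adjusted p = 0.835). For these 2 genes the call depended on the DMSO day.

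The lines' responses were compared in 1 fit of all libraries. At day 6 of VTP-50469 22 of 39 genes had a lower log2 fold change in NOMO1 than in OCI-AML3 and 1 a higher one, with a median difference of -0.41, and 16.8% of all genes tested were called lower and 16.6% higher. The largest differences were those of NOP16 (-1.33 ± 0.21, adjusted p = 1.19e-06), NHP2 (-1.15 ± 0.16, adjusted p = 7.34e-08) and GNL3 (-1.11 ± 0.13, adjusted p = 4.25e-09). RRP12 fell less in NOMO1 (0.54 ± 0.14, adjusted p = 0.0022). NHP2 lay at 36.1, 38.0 and 30 CPM with VTP-50469, against 64.9, 66.7 and 67.2 in DMSO, in NOMO1, whereas OCI-AML3 had the higher level with the drug given above. With library totals, which moved the median of all genes by -0.16, 31 genes were lower and 1 higher. Of the 18707 genes tested 4140 were lower and 2394 higher there. With DMSO day 3 as the control in both lines 21 of the 39 were lower and 7 higher, against 3771 and 4724 of the 18707. NOP16 and NHP2 then moved to -2.01 and -0.49, and RRP12 to 0.36.

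For the combination at day 6 the line difference was lower in NOMO1 for 33 of 39 genes and higher for 1, with a median of -0.86 (16.3% of all genes tested were called lower and 18.6% higher). NOP16 (-2.67 ± 0.23, adjusted p = 1.22e-12), MRTO4 (-2.25 ± 0.20, adjusted p = 1.7e-12) and GNL3 (-1.90 ± 0.14, adjusted p = 5.14e-15) differed most. NOP16 went to 1.6, 1.64 and 2.25 CPM in NOMO1 and to 27.8, 22.8 and 33.4 in OCI-AML3, where DMSO had 45.4, 46.5 and 41.3. POLR1E had the smaller fall in NOMO1 (0.42 ± 0.15, adjusted p = 0.0266), a call lost under 4 other settings and without any of 5 single libraries (0.30 to 0.41). NPM1 (0.11 ± 0.12, adjusted p = 0.509), TCOF1, RRP12, NOP2 and PPAN did not pass. With DMSO day 3 as the control 24 genes were lower and 3 higher, while of the 18707 genes tested 4020 were lower and 5028 higher.

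**Figure D4:**
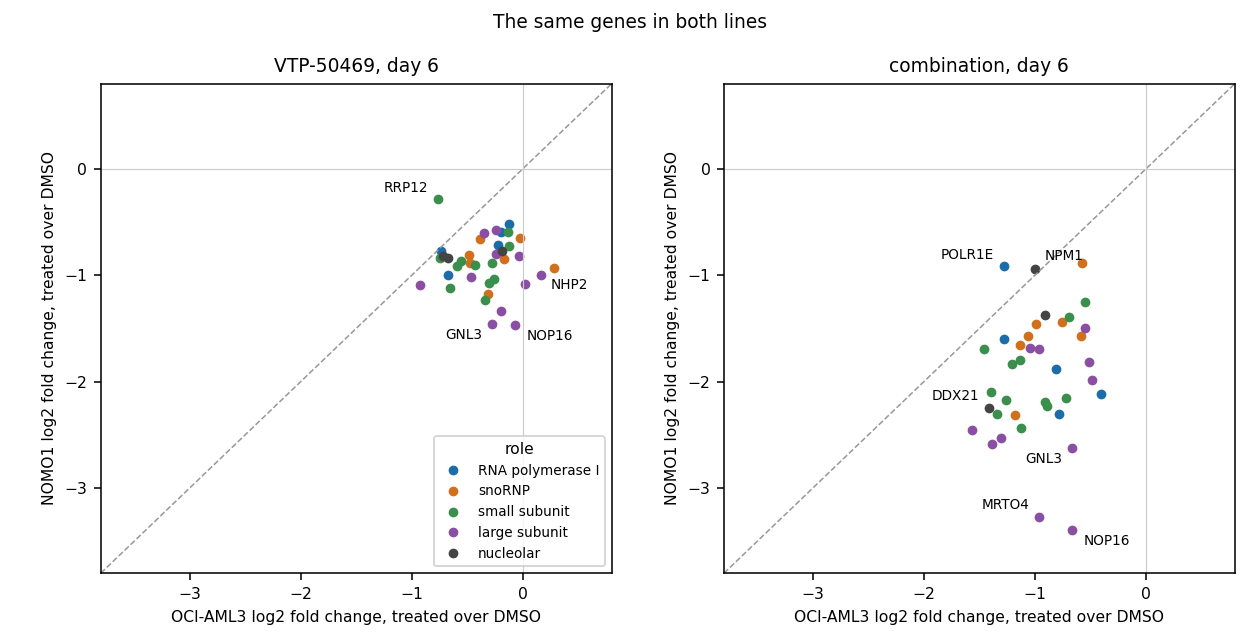
Log2 fold change against DMSO day 6 in NOMO1 (y axis) and OCI-AML3 (x axis) for VTP-50469 (left) and the combination (right) at day 6; each point is 1 of 38 genes, coloured by role, NOP2 is left out for its few reads, and the dashed line marks equal change. In the right panel NOP16, MRTO4 and GNL3 lie farthest below the line, at -3.39, -3.27 and -2.62 in NOMO1, and NPM1 lies near it.

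The effect of adding selumetinib to VTP-50469 at day 6, which uses no DMSO group, was lower in NOMO1 than in OCI-AML3 for 17 of 39 genes and higher for 1, with a median of -0.45 (9.18% of all genes tested were called lower and 11.4% higher). NOP16 (-1.34 ± 0.24, adjusted p = 4.15e-05) and the RNA polymerase I subunits POLR1C (-1.32 ± 0.22, adjusted p = 1.44e-05) and POLR1B (-1.21 ± 0.12, adjusted p = 7.63e-10) differed most. POLR1B was at 12.1, 10.4 and 10.4 CPM in the combination, against 26.3, 25.9 and 29.4 with VTP-50469, in NOMO1, whereas its OCI-AML3 groups overlapped. FBL had the smaller fall in NOMO1 (0.30 ± 0.10, adjusted p = 0.0217), a call lost with RLE size factors, with no filter, with only the groups compared and without any of 5 single libraries.

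DMSO libraries of day 6 and day 3 were compared within each line. In OCI-AML3 0 of 39 genes were called lower and 0 higher by edgeR, as for all genes (0.0% lower and 0.0% higher, 174 genes at an unadjusted p under 0.05, and 0 of the 39 by DESeq2), with a median of -0.01. In NOMO1 11 were lower at day 6 and 16 higher, with a median of -0.03, and 22.2% of all genes tested were called lower and 28.7% higher. UTP20 lay at 13.6, 15.1 and 12.1 CPM at day 6, against 2.75, 5.79 and 4.35 at day 3 (1.67 ± 0.22, adjusted p = 3.52e-07), HEATR1 at 51.8, 50.9 and 53.5, against 17.8, 17.4 and 20.2 (1.49 ± 0.10, adjusted p = 6.97e-13), and DDX21 at 235, 247 and 246, against 85.5, 90.8 and 86.5 (1.47 ± 0.08, adjusted p = 1.52e-14). MRTO4 was lower at day 6, at 42.3, 45.1 and 46.5 CPM, against 101, 108 and 108 (-1.24 ± 0.12, adjusted p = 2.29e-09).

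The other genes called lower at NOMO1 DMSO day 6 were RRS1 (-0.87), NOP16 (-0.84), PES1 (-0.77), GAR1 (-0.65), FBL (-0.56), POLR1C (-0.50), NOP56 (-0.32), BOP1 (-0.31), NPM1 (-0.31) and RRP12 (-0.29). POLR1C, NOP56 and RRP12 lost the call without DMSO day 3 replicate 2, RRP12 also without DMSO day 6 replicate 1 or 2, and POLR1C without any 1 of the day 6 replicates. Longer genes had higher values at day 6: over the 39 genes the log2 difference went with log2 exon length at Pearson r 0.477 and Spearman rho 0.487 (a description across genes that share the same 6 libraries). The median was 0.36 over the 20 longer and -0.10 over the 19 shorter genes. The same held for all genes, with a median of 0.36 in the longest of 4 equal groups by length and -0.52 in the shortest, and the part of gene length or RNA quality in these differences was not tested. With library totals, which moved the median of all genes by 0.34, 6 of the 39 were lower and 23 higher at day 6. Of the 16569 genes tested 1918 were lower and 7178 higher there.

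**Figure D5:**
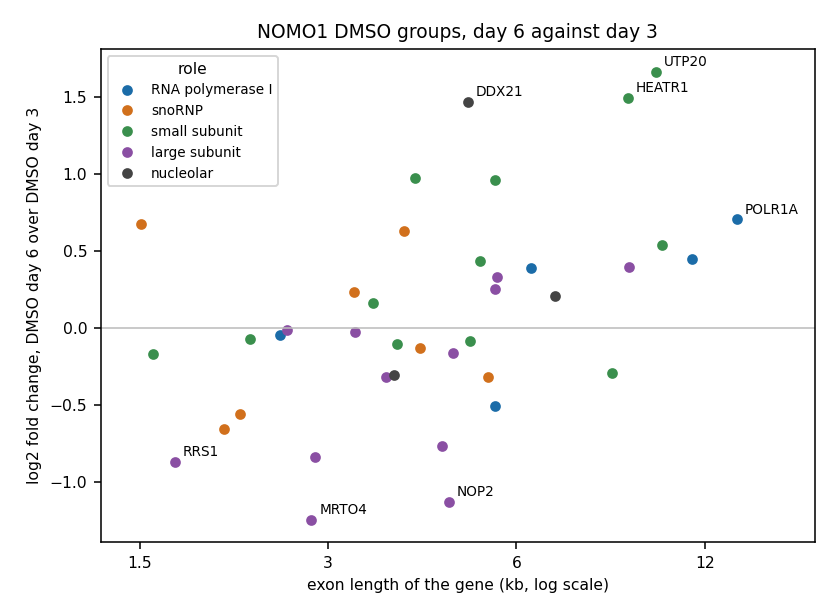
Log2 fold change of NOMO1 DMSO day 6 over DMSO day 3 (y axis) against exon length in kilobases (x axis, log scale); each point is 1 of the 39 genes, coloured by role. UTP20 and HEATR1 lie highest at 1.67 and 1.49, and MRTO4 lies lowest at -1.24.

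MYC itself lay at 136, 160.2 and 175 CPM in the OCI-AML3 combination at day 3, against 694, 674 and 656 in DMSO (-2.10 ± 0.11, adjusted p = 4.62e-14). In the NOMO1 combination at day 6 it lay at 59.4, 60 and 54.0, against 366, 360.5 and 378 (-2.67 ± 0.07, adjusted p = 5.2e-21). The 2 groups with the largest falls of the 39 genes in their line were also those with the largest falls of MYC. Other groups did not all keep this order. In NOMO1 MYC lay at 169, 158 and 158 CPM with VTP-50469 at day 6 and 172, 186 and 174 in the combination at day 3. The medians of the 39 genes there were -0.84 and -1.03. In OCI-AML3 it lay at 349.8, 395 and 358 CPM with VTP-50469 at day 6 and 480, 383 and 392 with selumetinib. These groups overlapped, and the medians of the 39 genes against DMSO were -0.28 and -0.48. MYC and the 39 genes are read from the same libraries, and a link between them was not tested.

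A list of 94 other ribosome assembly genes was read in the same fits, whose shares of all genes are given above. With VTP-50469 at day 3, 19 of 94 fell in OCI-AML3 and 12 in NOMO1, or 20.2% and 12.8%. In OCI-AML3 51 of 94 fell and 2 rose with VTP-50469 at day 6 (median -0.30), 63 fell and 0 rose under selumetinib (-0.36), and with both drugs at day 3 79 fell and 1 rose (-0.81). The methyltransferase gene EMG1 (-1.83 ± 0.13), NLE1 (-1.92 ± 0.18) and the RNA polymerase I subunit gene CD3EAP (-1.86 ± 0.26) had the largest falls there. TWISTNB, another RNA polymerase I subunit, rose both with VTP-50469 at day 6 (1.22 ± 0.08) and with both drugs at day 3 (0.24 ± 0.08). In NOMO1 76 of 94 fell and 0 rose with VTP-50469 at day 6 (-0.59), 53 fell and 2 rose under selumetinib (-0.37), and with both drugs at day 6 85 fell and 1 rose (-1.06). The 40S assembly factors PNO1 (-2.65 ± 0.17) and LTV1 (-2.39 ± 0.18) and PAK1IP1 (-2.43 ± 0.13) fell most, and NOP53 rose (0.43 ± 0.09).

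Genes of the ribosomal proteins, the ribosome's own parts, were counted in the same way. With VTP-50469 at day 6, 53 of 82 fell and 2 rose in OCI-AML3 (median -0.32). In NOMO1 60 of 83 fell and 1 rose (-0.30). That was 64.6% and 72.3% lower, against 16.0% and 25.1% of all genes. At day 3 of VTP-50469 26 fell and 0 rose in OCI-AML3 (-0.24), and 0 fell and 2 rose in NOMO1 (0.06). The day 3 shares lower were 31.7% and 0.0%, against 4.42% and 14.4% of all genes. With selumetinib 2 of 82 fell and 4 rose in OCI-AML3 (median 0.04), and 4 of 83 fell and 0 rose in NOMO1 (median 0.004), or 2.44% and 4.82% lower, against 15.6% and 19.0% of all genes. In the combination at day 6, 60 fell and 2 rose in OCI-AML3 (-0.36), and 33 fell and 5 rose in NOMO1 (-0.18). These were 73.2% and 39.8% lower, against 26.5% and 28.1% of all genes. When selumetinib was added to VTP-50469 at day 6 in NOMO1, where 36 of the 39 assembly genes were lower, 3 ribosomal protein genes were lower and 17 higher (0.14). Of 24 DNA replication genes, 9 were lower and 1 higher in that comparison (-0.20), against 24 and 0 in OCI-AML3 (-1.31). In the combination against DMSO at day 6 all 24 replication genes fell in NOMO1 (-1.07) and 24 in OCI-AML3 (-1.19). With selumetinib alone 24 of the 24 fell in OCI-AML3 (-0.93) and 23 in NOMO1 (-0.63), and 0 rose. With VTP-50469 at day 6 24 fell and 0 rose in NOMO1 (-0.92), whereas in OCI-AML3 2 fell and 6 rose (0.03). NOMO1 values against DMSO in these lists use DMSO day 6 only. Between the NOMO1 DMSO days, at day 6 over day 3, 71 of 83 ribosomal protein genes were lower and 1 higher (-0.79). Of the 24 replication genes 1 was lower and 16 higher (0.64), and of the 94 other assembly genes 28 were lower and 33 higher (0.015). Over all genes 22.2% were lower and 28.7% higher. These lists were not counted against DMSO day 3. Differences between these lists were not tested.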

How the data were processed

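Poly(A)-selected, unstranded paired-end libraries were read from 1 table of whole-number counts per gene, deposited by the authors. Per the submitters' processing notes, FastQC 0.11.9, MultiQC 1.14, STAR 2.11a, Subread 2.0.6 with featureCounts, DESeq2 1.44.0 and the build hg38 were named; multi-mapping and strand settings are not given in the sources used here. Of 58870 rows, 1 with an empty cell and 19 with no symbol were left out. A set of 3 columns that matched no labelled library, and equalled other columns, was not used. Genes were filtered with filterByExpr (16384 tested in OCI-AML3, 16569 in NOMO1, 18707 in both), scaled by TMM and tested with edgeR 4.0.16 (robust quasi-likelihood, R 4.3.3, limma 3.58.1) over the 7 groups of a line, or 14 groups for line differences, with Benjamini-Hochberg adjustment over all genes. Depth and annotation, from GENCODE 29 on GRCh38, are given above. The standard error is the log2 fold change over the square root of F. The script was tested on simulated data. The 39 members, role groups and other gene lists were chosen with earlier results of these data known. Library values are printed, by rule, for the called gene of largest fall in each role with VTP-50469 at day 6, selumetinib and the combination at day 6, and for NPM1 and POLR1B there. In other comparisons the 3 called genes of largest change and those called against the majority are named, and of the other assembly genes the 3 largest falls and the largest rise. Other genes and values were added after they were seen. Alternatives were DESeq2 1.42.0, RLE or library totals, no filter, only the groups compared, mitochondrial genes removed, the other DMSO day, a replicate block and leaving out each library. Replicate numbers do not pair libraries: correlations of same-numbered deviations were -0.089 to 0.041 (OCI-AML3) and -0.075 to 0.048 (NOMO1).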

Additional observations from a re-analysis of the deposited data

Results flagged for a closer look

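Listed here are departures of the combination from the sum of the single-drug effects, and contrasts that differed between lines. Each passed a test of the departure or difference itself (edgeR, 3 libraries per group). No explanation was weighed.

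In OCI-AML3 the combination at day 3 was lower than the sum of the single-drug effects for 31 of 39 genes. Over all genes tested 6.27% were lower and 2.67% higher. The log2 departures were -0.87 for NOLC1, -0.87 for BOP1 and -0.80 for POLR1A. In NOMO1 22 genes were lower, against 5.96% of all genes lower and 7.91% higher, with -0.93 for MRTO4, -0.92 for NOP58 and -0.91 for NOP16. The time of selumetinib alone is uncertain, so the sum may join different times. With DMSO day 3 as the control MRTO4 turned to 0.31 (adjusted p = 0.181) and NOP16 lost its call (-0.07, adjusted p = 0.835), and the count was 11 without selumetinib replicate 3.

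The VTP-50469 effect at day 6 was lower in NOMO1 than in OCI-AML3 for 22 genes and higher for 1, against 16.8% and 16.6% of all genes. The log2 differences were -1.33 for NOP16, -1.15 for NHP2, -1.11 for GNL3 and 0.54 for RRP12. The combination effect at day 6 was lower in NOMO1 for 33 genes and higher for 1, against 16.3% and 18.6% of all genes. The differences were -2.67 for NOP16, -2.25 for MRTO4, -1.90 for GNL3 and 0.42 for POLR1E. Adding selumetinib to VTP-50469 at day 6 was lower in NOMO1 for 17 genes and higher for 1, against 9.18% and 11.4% of all genes. Here they were -1.34 for NOP16, -1.32 for POLR1C, -1.21 for POLR1B and 0.30 for FBL. The POLR1E and FBL calls were lost under some other settings and without some single libraries, as given above.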

How the results depend on the processing

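The 5 genes called lower with VTP-50469 at day 3 in OCI-AML3 became 9 with DESeq2, 2 with library totals, 11 with no filter, 4 with a replicate block and 2 to 7 when each library was left out. With VTP-50469 at day 3 in NOMO1, the 5 called lower became 2 with only the groups compared, 11 with the other DMSO day, 6 with a replicate block and 3 to 10 when each library was left out. The interaction count in NOMO1 ran from 11 to 24 when each library was left out and was 23 with a replicate block. In OCI-AML3 the 31 of the interaction ran from 26 to 34 when each library was left out. The 23 called lower there with VTP-50469 at day 6 became 18 to 21, and the 35 with selumetinib became 27 to 34. With library totals 6 genes were lower and 23 higher at NOMO1 DMSO day 6, against 1918 and 7178 of the 16569 genes tested. Sign changes were looked up only for the genes named by rule in each comparison, so other members may change sign too. Among these, with the other DMSO day, FBL (-0.35) and NOP56 (-0.013) with VTP-50469 at day 3 and DDX21 (0.51) with selumetinib changed sign. So did MRTO4 (0.31) in the NOMO1 interaction and NHP2 (-0.19) between the lines in DMSO. With library totals NOP56 (0.021), RRP12 (0.045), BOP1 (0.022) and NPM1 (0.03) changed sign between the NOMO1 DMSO days. The cause of these changes was not tested. With a replicate block 24 genes were lower with VTP-50469 at day 6 in OCI-AML3 and 37 in NOMO1. NOP2 and PPAN have few counts, which limits their precision.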
